A study of Mus musculus with 2 samples.

Results

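A set of 6 miRNA genes known from white blood cells, Mir142, Mir150, Mir155, Mir223, Mir146 and Mir146b, were followed through small RNA libraries of mouse heart. They were taken by their symbols in the GENCODE M21 annotation, and all 6 were among the 2202 miRNA genes counted. The hearts came from B6CASTF1/J females (first-generation hybrids of the C57BL/6J and CAST/EiJ strains) aged 36 days, and the labels name no treatment. One library was made from each of 2 hearts, which form 1 group with n = 2 (biological replicates 1 and 2). The labels number the females separately but give both the same donor record, so the spread below is that between these samples. Levels are reads on the gene's strand per 1000000 such reads over all miRNA genes (CPM).

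MicroRNAs are short RNAs cut from a hairpin transcript; either arm of the hairpin, named 5p or 3p, can be loaded into an Argonaute protein, where bases 2 to 8 (the seed) lead it to messenger RNAs. The genes described here are known for their roles in blood cells. miR-142 is made in nearly all white blood cell lineages, miR-150 in mature B and T lymphocytes, and miR-223 in granulocytes and other myeloid cells. miR-155 rises when lymphocytes and macrophages are activated, and miR-146a is induced by NF-kB and dampens the same pathway through Traf6 and Irak1. Endothelial cells can also make miR-146a and miR-155. A heart holds resident macrophages and the blood left in its vessels, and libraries of whole tissue cannot tell apart fewer cells of a type and less RNA per cell.

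The mature sequences of these genes (RefSeq, build GRCm38.p6, 5′ to 3′, with the seed in capitals) show which members could bind the same targets. All 6 genes matched mature entries of the RefSeq table, 5 of them for both arms, and 5 matched a hairpin entry. For Mir150, miR-150-3p is the one mature sequence used here, so what is said of seeds and shared bases leaves out miR-150-5p. The counts are per gene and do not separate the arms.
miR-142a-5p: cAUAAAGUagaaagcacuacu
miR-142a-3p: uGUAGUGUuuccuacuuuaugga
miR-150-3p: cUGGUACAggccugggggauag
miR-155-5p: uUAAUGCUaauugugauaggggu
miR-155-3p: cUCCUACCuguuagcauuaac
miR-223-5p: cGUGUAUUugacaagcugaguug
miR-223-3p: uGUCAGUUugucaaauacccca
miR-146a-5p: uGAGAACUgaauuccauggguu
miR-146a-3p: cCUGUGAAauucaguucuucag
miR-146b-5p: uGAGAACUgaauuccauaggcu
miR-146b-3p: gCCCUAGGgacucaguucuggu

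Of these 11 mature miRNAs, only miR-146a-5p (from Mir146) and miR-146b-5p shared a seed, and no other entry of the table held it. The other 9 seeds occurred in no other of the 1679 mature miRNA names. The miR-146 pair agreed at 20 of 22 positions and differed by G18A and U21C, with positions counted from the 5′ end, the base of miR-146a-5p first and that of miR-146b-5p last. Their first 17 bases were identical, so a read must reach base 18 to tell one from the other. In the hairpins, the capitals mark the 21 bases that both genes share.
Mir146: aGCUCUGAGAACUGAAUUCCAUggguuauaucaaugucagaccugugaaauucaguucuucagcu
Mir146b: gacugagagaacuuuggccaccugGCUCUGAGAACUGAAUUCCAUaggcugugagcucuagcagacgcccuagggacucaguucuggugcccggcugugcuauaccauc

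Outside this pair, the longest run that a mature member shared with any other mature entry was 13 bases, between miR-142a-5p and miR-3964. Reads that mapped to several places were counted at no gene (42.0% of all reads in replicate 1 and 39.8% in replicate 2). That filter can remove reads of miRNAs with identical copies. None of the 11 mature sequences had an identical copy under another name in the table. For miR-150-5p this was not checked, and the genome itself was not searched.

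The members lie at 6 separate places in mm10, the build of the deposited counts. Mir142 (chr11:87756864-87756927, plus strand) is in an intron of Mir142hg, a long noncoding RNA. Mir155 (chr16:84714140-84714204, plus) is in exon 2 of the noncoding Mir155hg. Mir223 (chrX:96242817-96242926, plus) lies within an exon of F630028O10Rik, a noncoding transcript of the same strand. Mir146b (chr19:46342762-46342870, plus) is in an intron of the protein-coding gene Mfsd13a. Mir150 (chr7:45121757-45121821, plus) overlapped no other annotated gene, and neither did Mir146 (chr11:43374397-43374461, minus). Within 10 kb lay Tspoap1 beside Mir142, Mrpl39 beside Mir155, Vsig4 beside Mir223, and Cuedc2, Gm26792 and 2310034G01Rik beside Mir146b. Mir146 had no annotated neighbour within that distance. Beside Mir150 lay, among others, the ribosomal protein gene Rpl13a, the cytokine gene Flt3l, Gm45552, Gm45713, Snord32a, Snord33, Snord34, Snord35a, Snord35b and Mir5121. Of all these neighbours the files count 2, Mir142b and Mir5121. Mir5121 had 13 and 31 reads.

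Mir142b sits on the strand opposite to Mir142 and covers it whole. Its mature miRNA is shown because all 20 of its bases are complementary to miR-142a-3p.
miR-142b: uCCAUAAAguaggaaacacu
Mir142b had 0 reads on its own strand in both hearts, where a count of 0 allows up to 3 reads (1.45 CPM in replicate 1 and 1.70 CPM in replicate 2). The reads at this site were therefore all on the strand of Mir142. When strand is ignored, reads here count as ambiguous and Mir142 drops to 0. No member had a read on its opposite strand in either library, and the other 5 members had the same count with and without regard to strand.

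The libraries held 2074961 miRNA gene reads in replicate 1 and 1766135 in replicate 2. The ranges in brackets are 95% Clopper-Pearson intervals, which are exact for counting error. The labels name no molecular identifiers, and PCR copies are not independent molecules, so neither these ranges nor the floors hold any other error. Heart muscle markers were present: Mir208a, encoded in the gene of a heart myosin, reached 3809 and 5069 CPM. Of 6 neuronal genes none was detected, where detected means 2 CPM or more in both libraries, and Mir9-3, the highest, had 2 and 1 reads. Reads that mapped to more than 1 gene are missing from these counts, so the low counts do not show that neuronal miRNAs were absent. Red blood cell genes (Mir451a, Mir144 and Mir486) differed most in sum among the marker lists, with 45889 CPM in replicate 1 and 7590 CPM in replicate 2.

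In both hearts 5 of the 6 members were detected, beside 335 of all 2202 genes. Together the 6 genes made up a small part of the miRNA reads. Their sum was 5448 CPM in replicate 1, against 6485 CPM in replicate 2 (5966 ± 733, SD, n = 2). This is 0.545% (0.535 to 0.555) of miRNA gene reads in one heart and 0.648% (0.637 to 0.660) in the other. Mir155 supplied close to the same part of that sum in each heart, 48.0% and 49.2%. Levels are set side by side without a length correction; the mature sequences shown are 21 to 23 bases long, and read lengths were not measured. How readily each sequence enters a library was not tested. Shares and ranks cover only reads counted at a gene, so miRNAs whose reads mapped to several places can be missing or counted low.

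Mir155, the activation-induced member, had 5427 reads in replicate 1 and 5634 in replicate 2. Its level was 2615 CPM (2546 to 2686) and 3190 CPM (3107 to 3274), a mean of 2903 ± 406 CPM (SD, n = 2), and it was the 36th of 2202 genes by mean. No other member reached its lower value in either heart. It was below the heart muscle gene Mir208a by a similar factor in each: Mir208a had 1.46 times (1.41 to 1.51) its reads in replicate 1 and 1.59 times (1.54 to 1.64) in replicate 2.

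Mir150, the lymphocyte member, had 2015 and 3453 reads. That is 971 CPM (929 to 1014) in replicate 1 and 1955 CPM (1891 to 2021) in replicate 2, with a mean of 1463 ± 696 CPM (SD, n = 2). The higher heart was replicate 2, and the intervals were far apart.

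Mir146, which encodes the NF-kB feedback miRNA miR-146a, had 2753 and 1826 reads. Its level was 1327 CPM (1278 to 1377) in replicate 1 and 1034 CPM (987 to 1082) in replicate 2, a mean of 1180 ± 207 CPM (SD, n = 2). Here the higher heart was replicate 1. Mir146 and Mir150 changed places between the hearts: Mir150 had 0.732 times (0.691 to 0.776) the reads of Mir146 in replicate 1 and 1.89 times (1.79 to 2.00) in replicate 2.

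Mir142, the member common to white blood cell lineages, had 1037 and 387 reads. It stood at 499.8 CPM (469.8 to 531.1) in replicate 1 and 219 CPM (198 to 242) in replicate 2, with a mean of 359 ± 198 CPM (SD, n = 2). Its rank among all genes was 88th in replicate 1 and 112th in replicate 2.

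Mir223, the granulocyte and myeloid member, was the lowest of the 5 detected genes. It had 72 reads, or 34.7 CPM (27.2 to 43.7), in replicate 1 and 146 reads, or 82.7 CPM (69.8 to 97.2), in replicate 2, a mean of 58.7 ± 33.9 CPM (SD, n = 2). In both hearts it stayed below every value of Mir142, the next member up.

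Mir146b, the gene with the same seed as Mir146, was close to the limit of counting. It had no read in replicate 1 (interval 0 to 1.78 CPM, with the floor of 3 reads at 1.45 CPM). In replicate 2 it had 7 reads, or 3.96 CPM (1.59 to 8.17), and the 2 intervals overlapped. Mir146 had 261 times (126 to 650) the reads of Mir146b in replicate 2, and its reads were at least 746-fold higher in replicate 1 by the lower bound of the same interval (918 times the floor of 3 reads). Nearly all counted reads of genes with this seed therefore came from the chromosome 11 locus in each library.

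**Figure D1:**
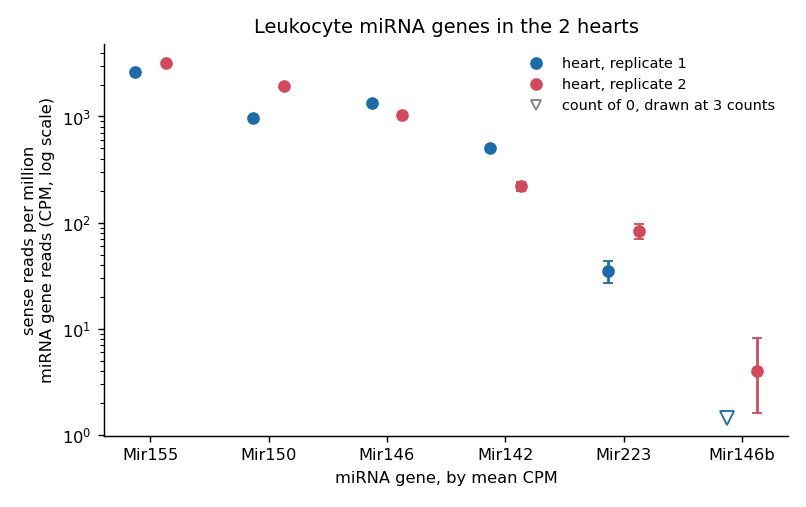
Level of each of the 6 genes in each heart, in sense reads per 1000000 miRNA gene reads (CPM) on a log axis. Points are single libraries, bars are 95% exact counting intervals, and the open triangle is a count of 0 drawn at 3 counts (1.45 CPM); Mir155 is highest in both hearts and Mir146b lowest, at 0 and 7 reads.

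By mean CPM the order was Mir155, Mir150, Mir146, Mir142, Mir223 and Mir146b. Mir150 and Mir146 did not differ beyond their spread, since the values of Mir146 lay between those of Mir150. Every other pair of neighbours in this order had values that did not overlap between the genes in these 2 hearts. With n = 2 no test of the order over hearts was made.

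The 6 genes were mixed in different proportions in the libraries of the 2 hearts. Mir150 made up 17.8% of their reads in replicate 1 and 30.1% in replicate 2, Mir146 24.4% and 15.9%, and Mir142 9.17% and 3.38%. Mir223 held 0.637% and 1.27%. Within a library, ratios between genes do not depend on the scaling. Mir150 had 1.94 times (1.80 to 2.10) the reads of Mir142 in replicate 1 and 8.92 times (8.03 to 9.94) in replicate 2. Mir142 had 14.4 times (11.3 to 18.6) the reads of Mir223 in replicate 1 and 2.65 times (2.19 to 3.23) in replicate 2. The ratio of Mir150 to Mir223, in contrast, was 28.0 (22.1 to 35.9) and 23.6 (20.0 to 28.1), with intervals that overlapped. That of Mir155 to Mir146 was 1.97 (1.88 to 2.06) and 3.09 (2.93 to 3.25).

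**Figure D2:**
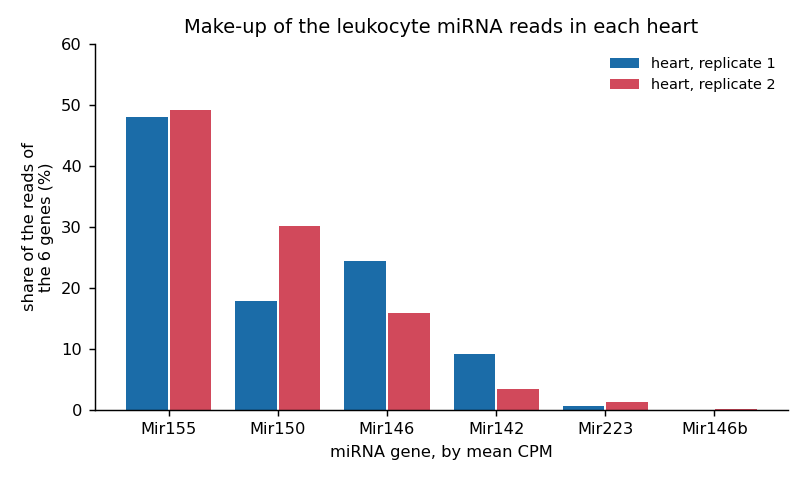
Share of each gene in the reads of the 6 genes (%), one bar for each heart, from single libraries. Mir155 holds 48.0% and 49.2%, while Mir150 is the larger in replicate 2 and Mir146 and Mir142 are the larger in replicate 1.

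The difference between the hearts was then tested gene by gene with a two-sided exact binomial test of how a gene's reads split over the 2 libraries. Library sizes were scaled by TMM, the trimmed mean of M values. P-values were adjusted by Benjamini-Hochberg over the 359 genes with 10 or more reads in all, with a threshold of 0.05. This compares 2 libraries beyond counting error, not conditions. Each heart has a single library, so differences between the animals and between library preparations cannot be told apart. Of the members, 5 had enough reads to be tested and Mir146b did not.

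All 5 tested members differed, 2 with more reads in replicate 1 and 3 with more in replicate 2. Over all tested genes, 44.3% differed, 24.2% being higher in replicate 1 and 20.1% in replicate 2. Calls were more frequent where reads were many: among other genes within 2-fold of a member's mean CPM, 41.2% were called around Mir223 and 90.3% around Mir155. The sizes of the differences are given next.

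Mir142 was 2.56-fold higher (2.28 to 2.89) in replicate 1, a log2 ratio of replicate 2 over replicate 1 of -1.36 (adjusted p = 9.57e-62, exact binomial test; for the other members it was 6.24e-05 for Mir155 and lower for the rest). Mir146 was 1.44-fold higher (1.36 to 1.53) in replicate 1 as well. In the other direction, Mir223 had a 2.11-fold higher level (1.59 to 2.85) in replicate 2, and Mir150 a 1.79-fold higher level (1.69 to 1.89). Mir155 was 1.08-fold higher (1.04 to 1.13) in replicate 2, the smallest difference of the 5. Differences of 2-fold or more, which 14.2% of all tested genes showed with a call, were thus seen for Mir142 and Mir223, in opposite directions.

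Seen beside genes of a like level, Mir142 was far apart and Mir155 was close. Of 36 other genes within 2-fold of the mean CPM of Mir142, with a median absolute log2 ratio of 0.27, only Mir31 differed more between the hearts (it is named here after its value was seen). For Mir155, with an absolute log2 ratio of 0.12, 26 of 31 such genes differed more. For Mir223, 12 of 68 differed more, for Mir150 11 of 40 and for Mir146 18 of 42. The median absolute log2 ratio over all 359 genes was 0.42.

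**Figure D3:**
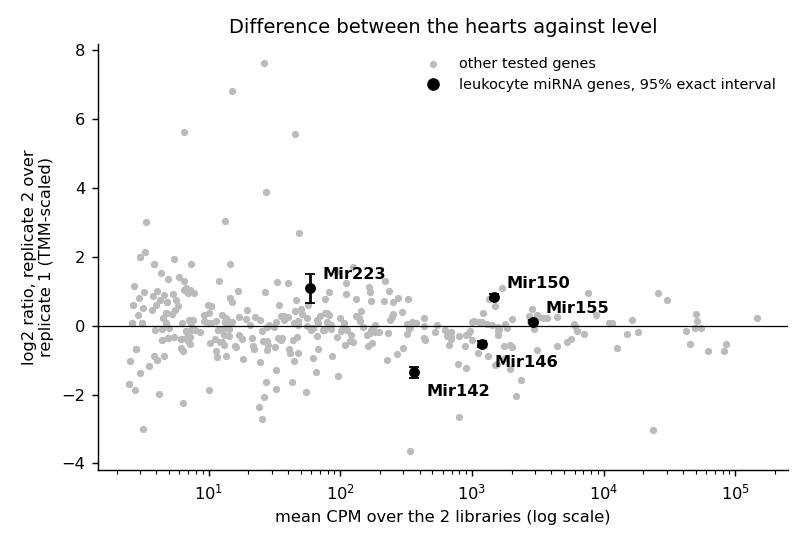
Log2 ratio of replicate 2 over replicate 1 (TMM-scaled) against mean CPM (log axis) for the 359 tested genes. Grey points are other genes and black points the 5 tested members with 95% exact intervals; Mir142 lies at -1.36, below nearly all genes of its level, and Mir155 at 0.12, near the line of no difference.

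All 5 tested members kept their direction under each scaling of the libraries. With library size alone, which shifts every log2 ratio by 0.17 towards replicate 2, Mir142 stood at -1.19 and Mir155 at 0.29, and over all genes 67 were called higher in replicate 1 and 103 in replicate 2 (87 and 72 with TMM). With DESeq2 size factors the Mir155 call was lost (log2 ratio 0.05, adjusted p = 0.107, exact binomial test). These factors were 1 in both libraries, so raw counts were compared, although the libraries held 2074961 and 1766135 gene reads. When edgeR's exact test instead used the common dispersion of both libraries as 1 group, a biological coefficient of variation of 40.4%, no member was called (each adjusted p = 1; 0 of 5 at an unadjusted p under 0.05). By that test 7 of 359 genes were called.

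**Figure D4:**
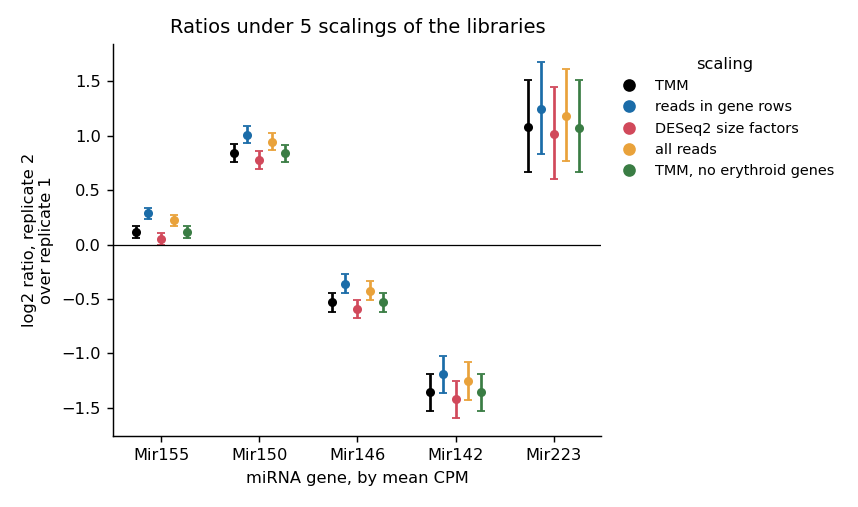
Log2 ratio of replicate 2 over replicate 1 for the 5 tested members under 5 scalings of the libraries, with 95% exact intervals of counting error. Each gene stays on its side of 0, and the interval of Mir155 with DESeq2 size factors reaches 0.

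Markers of other cells moved between the same hearts. All 3 red blood cell genes were called higher in replicate 1, Mir451a by 8.11-fold (7.95 to 8.28), Mir144 by 4.10-fold and Mir486 by 1.34-fold. The endothelial gene Mir126a was higher in replicate 1 too, at 97017 and 65811 CPM, and the 5 epithelial genes, of which 3 were called higher in replicate 2, summed to 266 and 576 CPM. The fibroblast genes were split: Mir214, the highest, had 926 and 1765 CPM and was called higher in replicate 2, and Mir199b, with 66 and 30 reads, was called 2.09-fold higher (1.35 to 3.36) in replicate 1. Mir199a-2 had 13 and 14 reads and no call. Any reads that mapped to more than 1 of these fibroblast genes are missing from their counts. The smooth muscle genes were split as well. Mir145a had 1129 and 1866 CPM and was called higher in replicate 2, by 1.47-fold (1.39 to 1.55). Mir143 had 41989 and 42366 CPM and was called 1.12-fold higher (1.10 to 1.13) in replicate 1 with TMM, but had a log2 ratio of 0.01 with no call (adjusted p = 0.138, exact binomial test) with library size alone. The liver gene Mir122 had 57.8 and 31.7 CPM, on 120 and 56 reads, and was called 2.04-fold higher (1.48 to 2.87) in replicate 1. Of the 3 heart muscle genes, which summed to 6143 and 8701 CPM, 2 were called higher in replicate 2 (Mir208a and Mir499). Mir142 and Mir146 thus moved in the direction of the red blood cell, endothelial and liver genes. Mir150, Mir223 and, by 1.08-fold, Mir155 moved in that of the called heart muscle and epithelial genes. With the 3 red blood cell genes left out of library sizes and scaling, the log2 ratio of Mir142 was -1.36 and that of Mir150 0.84, as before. The part of blood content or cell make-up in the members' differences was not tested.

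Other miRNA genes linked to white blood cells were present as well, from abundant genes such as Mir21a and Mir342 to genes near the floor. A list of 15 such genes had 13 detected and tested members, beside 335 of all 2202 genes detected. The 13 had a median CPM of 171 (45.2 over all tested genes). Of the 13, 5 were called higher in replicate 1 and 1 in replicate 2, which is 46.2% beside 44.3% of all genes. This split depended on the scaling. With library size alone, 1 of the 13 was called higher in replicate 1 (Mir511) and 3 in replicate 2 (Mir181a-2, Mir181c and Mir21a), and with DESeq2 size factors 7 and 1. With TMM, their median log2 ratio was -0.15, against -0.01 over all genes, and their median absolute log2 ratio 0.24, against 0.42.

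Among the lymphocyte genes of that list, Mir342 had 1568 and 1645 CPM (1606 ± 54.5, SD, n = 2). With TMM it was 1.07-fold higher (1.02 to 1.13) in replicate 1, whereas its CPM was higher in replicate 2, and with library size alone its log2 ratio was 0.07 with no call. Mir181d, of a family known from T cell development, had 957 and 971 CPM (964 ± 9.78). It was likewise 1.11-fold higher (1.04 to 1.18) in replicate 1 with TMM, and had a log2 ratio of 0.02 with no call with library size alone. Neither gene thus had a direction that held under every scaling. Mir181a-2, with 250 and 392 reads, was the one gene of the list called higher in replicate 2, by 1.64-fold (1.39 to 1.93). Mir181b-2 (1265 and 1115 reads, 620 ± 15.3 CPM), Mir181c, Mir181a-1 and Mir181b-1 did not pass the threshold with TMM. Several miR-181 genes encode the same mature miRNA, so reads that mapped to more than 1 of them are missing from these counts.

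Of the genes known to rise in activated lymphocytes or macrophages, Mir21a was the highest, with 3392 and 3354 reads (1767 ± 187 CPM) and no call with TMM; with library size alone it was called higher in replicate 2 (log2 ratio 0.22). Mir132 and Mir182 were called higher in replicate 1, by 1.18-fold and 1.53-fold, calls that were lost with library size alone, and Mir183 and Mir212 were not called. Mir21a and Mir132 are also made by heart muscle cells and fibroblasts. The macrophage gene Mir511, which lies in the gene of a mannose receptor, was 4.79-fold higher (1.79 to 21.02) in replicate 1, on 22 and 4 reads. It was the one gene of the list that differed by 2-fold or more with a call. Mir147, induced in macrophages by Toll-like receptors, had 3 reads in each heart, and Mir96 had 1 and 0.

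The genes closest to each member over the 2 libraries were found by the distance in log2(CPM + 1), which reflects level and ratio together. For Mir142 they were Mir210 (346 and 248 CPM, distance 0.56), Mir339 and Mir132, and for Mir223 Mir345 (41.9 and 71.3 CPM, distance 0.34), Mir505 and Mir434. Mir150 had closer partners in Mir214 (distance 0.16), Mir145a and Mir195a. Mir155 was nearest to Mir423 (2459 and 3044 CPM, distance 0.11), Mir92-1 and Mir744, and Mir146 to Mir106b (1352 and 883 CPM, distance 0.23), Mir335 and Mir486. A likeness over 2 samples is a description only, and no member was among the 3 nearest of another, since members were left out of the search.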

How the data were processed

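The authors deposited raw read counts per miRNA gene (GENCODE M21, mm10) for each library, per the notes deposited with the files. For the aligner and the counter, no name is given in the sources used here. Each file has 3 columns of counts, read from their values as strand ignored, gene's strand and opposite strand, and 4 rows that name no gene. Those rows held the reads that mapped to several places, outside genes or nowhere, or were ambiguous. They were left out of library sizes, so 37.0% and 35.4% of all reads entered. Reads of CAST/EiJ alleles that differ from the reference may have been lost, which was not tested.

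Gene-strand counts were scaled to CPM over gene rows, and all 2202 IDs matched GENCODE M21. Ratios used TMM (edgeR 4.0.16) and a prior count of 0.5; intervals and exact binomial tests used SciPy 1.17.1, across all genes with 10 or more counts. DESeq2 1.42.0 size factors (1 in both libraries) were an alternative, as were those in the closing section. The test script was checked on simulated counts that held counting error alone, so that check does not cover spread between hearts. The members, gene lists and tests were chosen with earlier results of these data known. Named were all members, detected genes of the list of 15, the top gene of each marker list, annotated neighbours within 10 kb (1 is not reported here) and the 3 nearest genes of each member with 50 or more counts.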

Additional observations from a re-analysis of the deposited data

How the results depend on the processing

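Of the alternatives, scaling, filters, thinning and leaving out the red blood cell genes kept the direction of all 5 tested members, and their calls apart from Mir155 with DESeq2 size factors (log2 ratio 0.054). With edgeR's exact test and a common dispersion, none of the members was called at unchanged log2 ratios: -1.36 for Mir142, 0.84 for Mir150, 0.117 for Mir155, 1.08 for Mir223 and -0.529 for Mir146. The number of called genes fell from 159 to 7, 2 higher in replicate 1 and 5 in replicate 2; the dispersion it used holds the difference between the hearts itself. Counts without regard to strand gave 0 CPM for Mir142, whose reads become ambiguous there, 4015 for Mir155, 1638 for Mir146 and 7753 for the sum, over fewer gene reads. With all reads as library size, levels were lower by construction: 131 CPM for Mir142, 525.6 for Mir150, 1048 for Mir155, 21 for Mir223, 428 for Mir146 and 2156 for the sum. Without replicate 2 the reads of Mir146 are 918 times the floor of 3 reads for Mir146b (746 by the lower bound of the 95% interval), and without replicate 1 it is 261. With no filter on counts, Mir146b was tested on its 7 reads, all in replicate 2 (adjusted p = 0.0284, exact binomial test over 628 genes). The other listed genes were recomputed under the same alternatives after seeing the data. With library size alone Mir342 (0.0693), Mir181d (0.0208) and Mir143 (0.0129) turned towards replicate 2 without a call, as did Mir342 with all reads (0.00476). Without regard to strand, Mir126a had a log2 ratio of 0.22 and no call (adjusted p = 0.839, exact binomial test). On its own strand it had 201306 and 116231 reads, so a ratio of that size without a call rests on few remaining reads. It is not read as a change of direction. No paired analysis was possible because the series has 1 group. Depth limits Mir146b and Mir511, with 7 and 26 reads in all.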
